A study of Mus musculus with 12 samples.

Results

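The 37 genes described here make, sense, take up, store, break down and export cholesterol, and they were followed in the cortex of mice that carry a mutant allele of Tbl1xr1. They were chosen by symbol, and GENCODE M21 placed all 37 among the 54232 gene identifiers of the deposited table. 18 of them are enzymes of cholesterol synthesis, 5 sense sterols, 6 serve uptake, transport and storage, 1 serves turnover, 4 serve efflux and 3 are membrane lipid enzymes controlled by the liver X receptors (LXR). The study profiled messenger RNA of frozen cortex from 12 mice of the C57BL/6J strain, all aged 12 weeks, with 1 library per mouse. 6 mice were homozygous for the Y446C allele (Tbl1xr1 Y446C/Y446C) and are called mutants below, and 6 were wild type, with 3 females and 3 males of each genotype. Values of single libraries are given by animal number, in the order female mutants 1, 3 and 6, female wild types 2, 4 and 5, male mutants 7, 10 and 27, and male wild types 8, 12 and 13.

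The brain makes nearly all of its own cholesterol, because lipoproteins of the blood do not cross into it. When membranes of the endoplasmic reticulum run low in sterol, SCAP carries the transcription factor SREBP2 to the Golgi for cleavage, and the released factor switches on the genes of the mevalonate and sterol arms of synthesis, while INSIG proteins hold SCAP back when sterol is plentiful. Oxysterols formed from surplus cholesterol activate LXR, which switches on efflux genes such as Abca1, Abcg1 and Apoe, and also Mylip, Srebf1 and the stearoyl-CoA desaturases. TBL1XR1 is a subunit of the NCoR and SMRT corepressor complexes, which LXR and other nuclear receptors bind in the absence of ligand. Astrocytes supply neurons with cholesterol on particles that hold APOE, and oligodendrocytes build it into myelin.

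Female mutant 3 stood apart from the other libraries and values without it are given beside many of the results. It held 3748515 counts, of which 31.6% were mitochondrial, with 17349 genes at 1 count or more. The other 11 libraries held 21238427 to 32669138 counts, 5.23% to 10.4% of them mitochondrial, with 24346 to 26012 genes at 1 count or more. Among those 11, the mitochondrial share was highest in male wild type 8 (10.4%) and female mutant 1 (9.96%). Over the 12 libraries, 10 markers of excitatory neurons summed to 2810 to 4241 CPM (counts per 1000000 counts). The sum of 8 markers of striatal neurons ran from 151 to 1171 CPM. No reference level was set for these sums, so they do not test the cortex label. The cortex holds many cell types, so fewer cells of a type and less RNA per cell cannot be told apart.

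To show the kind of control sequence the genes carry, upstream sequence of 4 members is given from the RefSeq promoter table (GRCm38.p6), in which 28 of the 37 members matched by symbol. Each stretch is the 250 bases upstream of a listed transcript start, 5′ to 3′ along the gene's strand. They lie at chr13:119690101-119690350 (plus strand) for Hmgcs1, chr5:28071162-28071411 (plus strand) for Insig1, chr11:60210472-60210721 (minus strand) for Srebf1 and chr4:53159896-53160145 (minus strand) for Abca1. Hmgcs1 and Insig1 are shown as SREBP2 targets, and Srebf1 and Abca1 as LXR targets and as the members of smallest p in females. Capitals mark matches on either strand to the sterol response element TCACNCCAC or its core CACNCCAC, to CCAAT, the box bound by NF-Y (ATTGG on the other strand), and to the LXR direct repeat DR4 (AGGTCA, 4 free bases, AGGTCA) with at most 3 mismatches, which is marked for the LXR targets alone. Srebf1 has 3 listed starts, and the one whose window comes closest to the direct repeat is shown.
Hmgcs1: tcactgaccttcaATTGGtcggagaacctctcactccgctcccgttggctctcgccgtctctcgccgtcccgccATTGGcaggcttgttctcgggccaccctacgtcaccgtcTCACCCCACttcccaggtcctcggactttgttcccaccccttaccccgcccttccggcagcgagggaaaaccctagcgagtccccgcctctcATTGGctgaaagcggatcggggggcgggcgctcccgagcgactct
Insig1: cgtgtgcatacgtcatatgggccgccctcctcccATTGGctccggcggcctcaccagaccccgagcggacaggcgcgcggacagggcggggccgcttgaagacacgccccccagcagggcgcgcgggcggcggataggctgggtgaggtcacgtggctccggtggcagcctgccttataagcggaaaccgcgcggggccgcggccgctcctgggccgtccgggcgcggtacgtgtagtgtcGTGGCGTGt
Srebf1: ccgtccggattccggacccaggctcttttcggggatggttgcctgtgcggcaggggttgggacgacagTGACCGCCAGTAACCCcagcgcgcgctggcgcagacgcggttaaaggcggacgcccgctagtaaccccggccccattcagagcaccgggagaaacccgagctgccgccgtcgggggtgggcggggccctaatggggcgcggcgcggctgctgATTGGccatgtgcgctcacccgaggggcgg
Abca1: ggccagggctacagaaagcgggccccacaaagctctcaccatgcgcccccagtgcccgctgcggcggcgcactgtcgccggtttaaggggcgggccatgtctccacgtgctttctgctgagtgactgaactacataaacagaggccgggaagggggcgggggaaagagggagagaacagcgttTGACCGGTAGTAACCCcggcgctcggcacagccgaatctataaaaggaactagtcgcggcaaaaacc

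CCAAT was found in a promoter of 14 of the 15 synthesis genes in the table, against 41.1% of all 27025 genes there, in windows of 250 bases before to 50 after the start. 2 of these 15 genes had more than 1 listed promoter, which gives more chances of a match. The element TCACNCCAC was found in 1 of the 15 (Hmgcs1, at -137 from the start) and in 1.44% of all genes. Its core CACNCCAC, which lies inside the longer element, was found in 2 of the 15 (Acat2 and Hmgcs1) and in 7.12% of all genes, and Insig1 also held it, at -9. The direct repeat with at most 2 mismatches was found in 1 of the 15 synthesis genes (Dhcr7), in 0 of the 2 efflux genes in the table (Abca1 and Apoe) and in 3.47% of all genes. With 3 mismatches allowed, matches stood at -67 in Abca1 and at -182 in Srebf1, and 24.5% of all genes held one. These matches are letters in a window and were not tested for binding.

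Levels were compared between genes as TPM, a unit like CPM that also scales counts by exon length. In the 6 wild types, Scd2, a stearoyl-CoA desaturase that puts a double bond into fatty acids, had a median of 1351 TPM (lowest 1219, highest 1473). Apoe, the main apolipoprotein of the brain, had a median of 1320 TPM (lowest 1252, highest 1377). Their ranges overlapped, and both lay above every other member. Hmgcs1 followed with a median of 262 TPM, then Scd1 (219 TPM), Cyp46a1 (142 TPM) and Srebf2 (94.5 TPM). The lowest were Lss (13.4 TPM), Mvk (12.3 TPM), Tm7sf2 (8.57 TPM) and Fdps (0.531 TPM). Most neighbours in the order could not be separated, since their wild-type ranges overlapped. The ranges did not overlap between Apoe and Hmgcs1, between Scd1 and Cyp46a1, between Cyp46a1 and Srebf2, between Nsdhl and Stard4, between Mvk and Tm7sf2, or between Tm7sf2 and Fdps.

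Mutants and wild types were compared over both sexes, within females and within males, and the effect in females was compared with the effect in males. Levels of single libraries are CPM on totals scaled by TMM, a factor that corrects for differences in composition, and a log2 fold change is mutant over wild type, given with its standard error (SE). All 37 members passed the filter on low counts, and 0 of them passed an adjusted p of 0.05 in any of the 4 comparisons by the quasi-likelihood test of edgeR. Over both sexes it called 0.00555% of the 18016 genes tested, and it called 0% in females, 0% in males and 0% for the difference between the sexes. At an unadjusted p under 0.05, 1 member was found over both sexes (3.96% of all tested genes), 4 in females (11.8%), 0 in males (2.78%) and 3 for the difference (7.67%). DESeq2, run on the 12 libraries, called 0 members in each of the 4 comparisons, where it called 0.161% of the genes it tested over both sexes, 0.0333% in females, 0.0222% in males and 0.0222% for the difference. Limma-voom with library weights also called 0 members in each, beside 0.122% of all genes over both sexes, 0.0222% in females, 0.00555% in males and 0.00555% for the difference. With female mutant 3 left out, edgeR called 0 members, beside 0.0108% of 18461 genes over both sexes, 0% in females, 0.00542% in males and 0% for the difference. In the same 11 libraries DESeq2 called 1 member, Srebf1 in females (0.0962% of genes), and 0 members over both sexes (0.287%), in males (0.0867%) and for the difference (0.0217%).

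The 18 synthesis genes were set beside the 4 efflux genes in every library. In males, all 18 synthesis genes had a log2 fold change above 0, with a median of 0.12, beside 51% of all tested genes above 0 and a median of 0.00, whereas the 4 efflux genes had 2 above and 2 below 0 and a median of 0.01. In females, 7 synthesis genes lay above and 11 below 0 (median -0.07), the 4 efflux genes lay below 0 (median -0.31), and 46.5% of all tested genes lay above 0 (median -0.03). The female medians without female mutant 3 were 0.01 for synthesis, with 10 of 18 above 0, and -0.11 for efflux, with 1 of 4 above 0, beside 48.1% of all genes. Over both sexes the synthesis median was 0.04, with 12 of 18 above 0, and the efflux median -0.15, with 1 of 4 above 0, beside 47.6% of all genes, and without female mutant 3 they were 0.08 (16 of 18) and -0.01 (2 of 4), beside 50.9%. Scaling by library totals moved the median of all genes in females to -0.21. With it, 5 of 18 synthesis genes lay above 0 over both sexes and 3 of 18 in females, while the male count remained 18 of 18. With 1 library left out at a time, the male count ran from 14 to 18 of 18.

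The mean log2 CPM of the synthesis list was 4.77, 4.80 and 4.77 in male mutants, against 4.66, 4.60 and 4.64 in male wild types. These 2 groups did not overlap, with means of 4.78 ± 0.02 in male mutants and 4.63 ± 0.03 in male wild types (SD, n = 3 each). The list includes Fdps, which held 167 counts over the 12 libraries. Without Fdps the list mean was 5.0885, 5.0868 and 5.0487 in male mutants, against 5.0029, 4.9092 and 4.9144 in male wild types. The male groups then also did not overlap, but the nearest mutant and wild type lay closer together. In female mutants the mean of the full synthesis list was 4.65, 4.12 and 4.68, against 4.66, 4.80 and 4.61 in female wild types. Female mutant 3 thus lay far below the rest. The efflux mean was 6.72, 6.70 and 6.64 in male mutants, against 6.69, 6.64 and 6.69 in male wild types. It was 6.65, 5.45 and 6.60 in female mutants, against 6.65, 6.67 and 6.72 in female wild types. The efflux groups overlapped in both sexes, and female mutant 3 was again the lowest library.

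Taken as a difference of list means, synthesis minus efflux was -1.96, -1.90 and -1.88 in male mutants, against -2.03, -2.03 and -2.05 in male wild types, with no overlap. In females it was -2.002, -1.33 and -1.92 in mutants, against -1.99, -1.87 and -2.11 in wild types, with the value of -1.33 from female mutant 3. With the wider list of 9 LXR targets, which adds Mylip, Lpcat3, Scd1, Scd2 and Srebf1 to the efflux genes, 6 of 9 lay above 0 in males (median 0.06) and 2 of 9 in females (median -0.30), or 4 of 9 in females without female mutant 3 (median -0.07). No test was made on these list values, because the members were chosen with results of these data known.

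**Figure D1:**
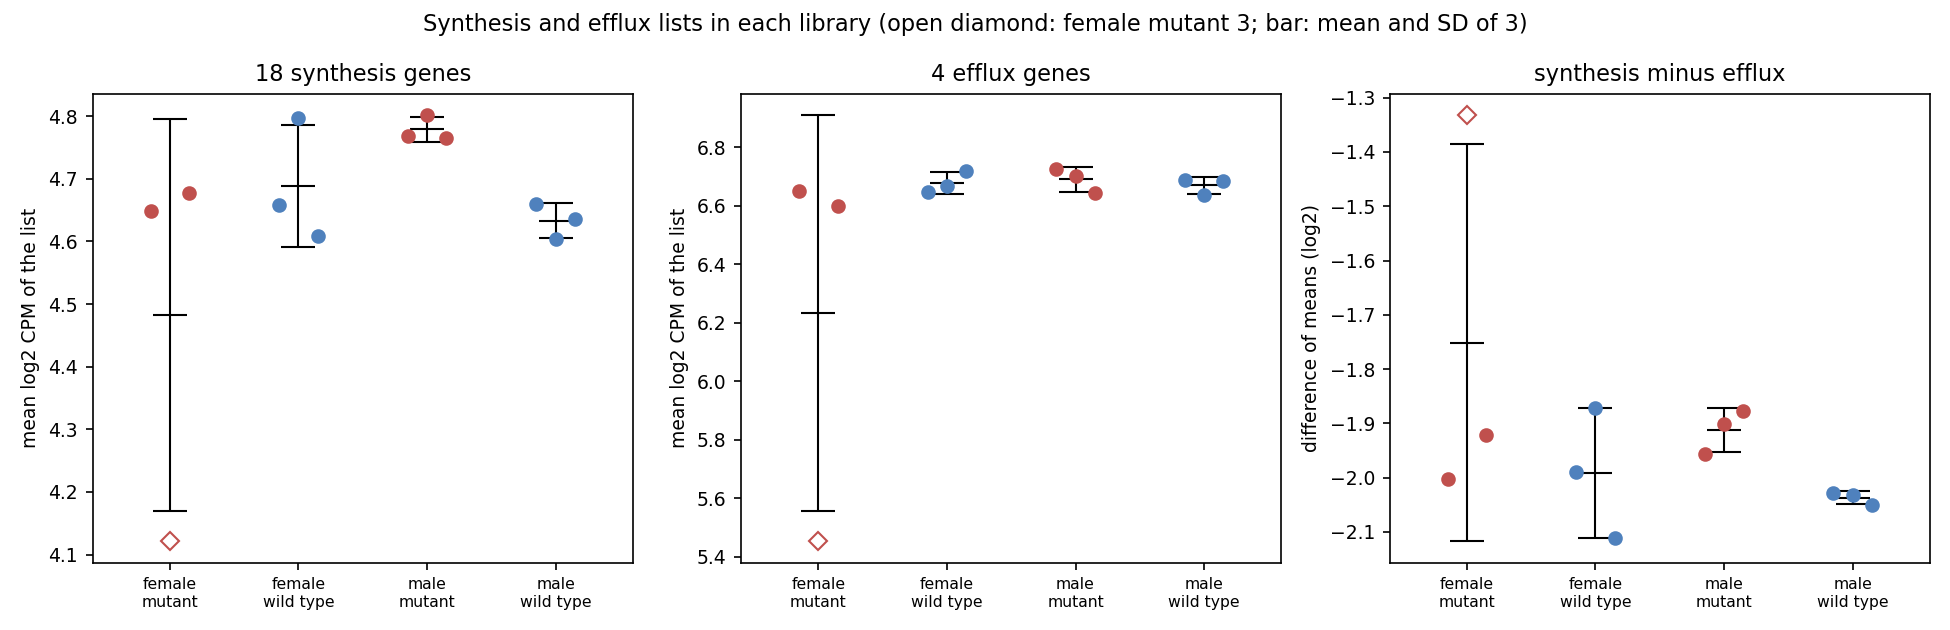
Mean log2 CPM of the 18 synthesis genes (left), of the 4 efflux genes (middle) and their difference (right), with 1 point per library and a bar for the mean and SD of 3 libraries. The male mutants lie above the male wild types for synthesis and for the difference, and female mutant 3 (open diamond) lies apart in each panel; the vertical axes do not start at 0 because they show logarithms.

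Several marker lists moved beside the male synthesis values. In males, 5 of 5 markers of red blood cells were higher in mutants (summed CPM 40.7 to 52.2 in mutants against 20.7 to 26.98 in wild types), and 8 of 8 markers of striatal neurons were lower (151 to 396 against 314 to 784). The summed level of the 8 markers of inhibitory neurons was also lower in male mutants without overlap (937 to 1009 against 1049 to 1088), with 4 of the 8 lower. Of the oligodendrocyte markers, 7 of 10 were higher (5181 to 8040 in mutants against 5811 to 7003 in wild types), as were 7 of 10 of astrocytes, though their sum was lower (5608 to 5823 against 5911 to 6271), while 8 of 10 of excitatory neurons were lower (2810 to 3921 against 3437 to 4012). All of these markers had a count in each of the 12 libraries except Hbb-bt, which had no count in 1 library of either sex (not named here). The mitochondrial share was 5.57% to 6.51% in male mutants and 5.79% to 10.4% in male wild types. The part of cell composition and RNA quality in the synthesis values was not tested.

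In the mevalonate arm, 7 of 7 genes lay above 0 in males (median 0.16) and 3 of 7 in females (median -0.00), or 4 of 7 in females without female mutant 3 (median 0.01). Hmgcs1 (ENSMUSG00000093930), which makes HMG-CoA from acetyl-CoA units, was at 331, 379 and 365 CPM in female mutants, against 289.7, 329 and 308 CPM in female wild types. It was at 334, 296 and 301 CPM in male mutants, against 346, 276 and 268 CPM in male wild types. All 3 female mutants lay above all 3 female wild types, while the male groups overlapped. The log2 fold change of Hmgcs1 was 0.21 (SE 0.12) in females and 0.06 (SE 0.12) in males (edgeR adjusted p = 0.443 in females and 1 in males).

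Idi1, the isomerase that yields the unit condensed into longer chains, was at 23.3, 38.7 and 22.4 CPM in female mutants, against 20.6, 21.3 and 19.3 CPM in female wild types. The female groups did not overlap, though female mutant 3 was far above the other 2 mutants. In males Idi1 was at 22.3, 21.4 and 17.9 CPM in mutants, against 24.8, 16.9 and 16.8 CPM in wild types, and these overlapped. Over both sexes, the log2 fold change of Idi1 was 0.24 (SE 0.15), and it was 0.12 (SE 0.10) without female mutant 3.

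Acat2, which joins acetyl-CoA units at the start of the pathway, was at 26.4, 28.1 and 26.8 CPM in male mutants, against 24.0, 25.4 and 26.2 CPM in male wild types. In females it was at 23.8, 23.2 and 24.2 CPM in mutants, against 23.8, 25.9 and 21.8 CPM in wild types. The male groups did not overlap, by a small margin, and the female groups did. How the authors' counting treated reads shared by Acat2 and its close copy Acat3 is not given in the sources used here.

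Mvd, the decarboxylase that ends the mevalonate steps, was at 10.4, 10.8 and 9.88 CPM in male mutants, against 9.86, 8.27 and 7.95 CPM in male wild types. It was at 8.06, 3.87 and 9.37 CPM in female mutants, against 9.13, 10.3 and 8.86 CPM in female wild types. The male mutants all lay above the male wild types, the nearest pair almost touching, and the value of 3.87 CPM in female mutant 3 rests on 10 counts. The log2 fold change of Mvd was 0.25 (SE 0.20) in males and -0.27 (SE 0.21) in females, and their difference (female minus male) was -0.52 (SE 0.29; edgeR adjusted p = 0.555). With female mutant 3 left out, the female value of Mvd was -0.11 (SE 0.13) and the difference -0.36 (SE 0.18; edgeR adjusted p = 0.479).

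Fdps, which makes farnesyl diphosphate, was almost uncounted, with 167 counts over the 12 libraries. It was at 0.236, 0 and 0.310 CPM in female mutants, against 0.465, 0.879 and 0.364 CPM in female wild types, and at 0.546, 0.889 and 0.884 CPM in male mutants, against 0.364, 0.582 and 0.844 CPM in male wild types. The count of 0 in female mutant 3 allows up to 3 counts there (for counting error only), which is 0.8003 CPM of its unscaled total. On the TMM-scaled totals used for the values above, where 10 counts in that library stood for 3.87 CPM, this limit is higher. It lies above both other female mutants and above all 3 female wild types. Exons of Fdps overlap those of Gm43738 on the same strand, and how such reads were assigned is not given in the sources used here. Mvk and Pmvk, the kinases that add phosphates to mevalonate, ranged from 3.87 to 10.9 CPM and from 13.6 to 24.7 CPM over the 12 libraries, with overlapping groups in both sexes.

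**Figure D2:**
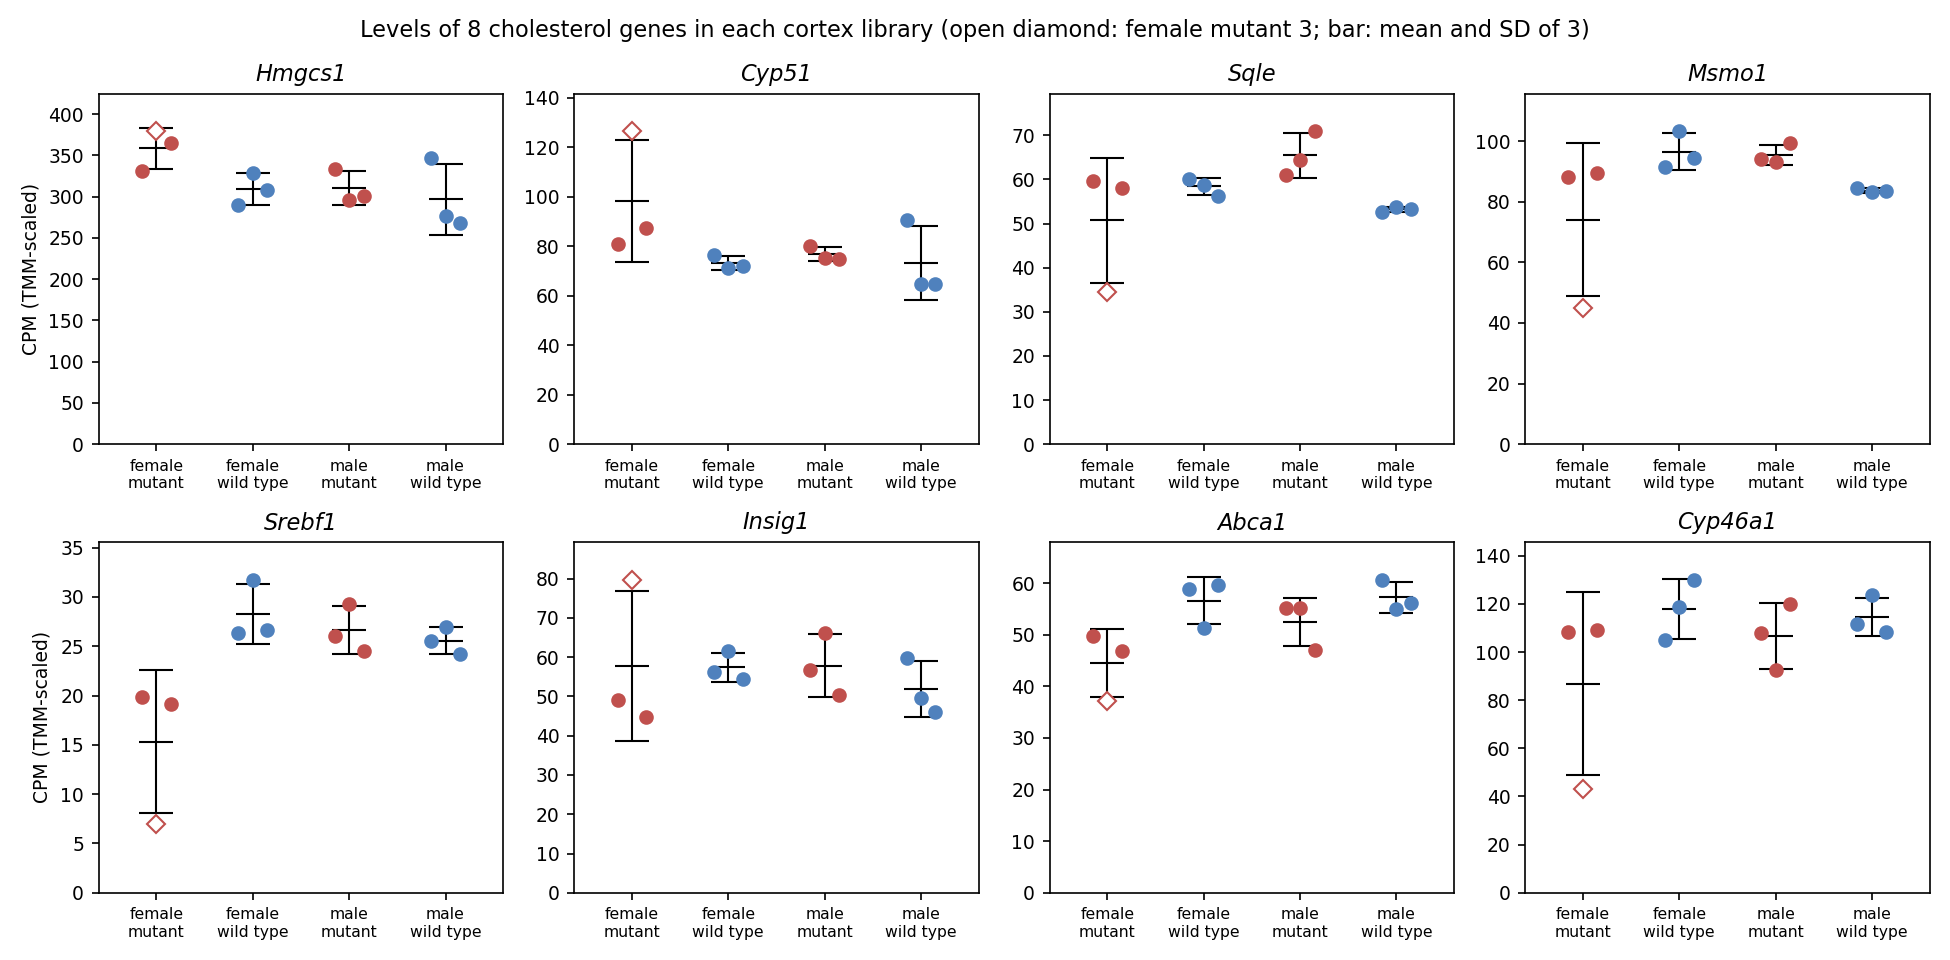
CPM of 8 members in each library (vertical axes from 0), with 1 point per library, the open diamond for female mutant 3 and a bar for the mean and SD of 3 libraries. Sqle and Msmo1 are higher in the 3 male mutants than in the 3 male wild types, Srebf1 and Abca1 are lower in the 3 female mutants than in the 3 female wild types, and female mutant 3 is the lowest or the highest female mutant in each panel.

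In the sterol arm, 11 of 11 genes lay above 0 in males (median 0.07) and 4 of 11 in females (median -0.07), or 6 of 11 in females without female mutant 3 (median 0.01). Sqle, the squalene epoxidase at the first oxygen-dependent step, was at 61.0, 64.5 and 71.0 CPM in male mutants, against 52.7, 53.7 and 53.2 CPM in male wild types. In females it was at 59.7, 34.5 and 58.0 CPM in mutants, against 60.1, 58.8 and 56.3 CPM in wild types. Every male mutant lay above every male wild type, and the females overlapped apart from female mutant 3. The log2 fold change of Sqle was 0.30 (SE 0.16) in males and -0.17 (SE 0.16) in females (edgeR adjusted p = 1 in males and 0.602 in females). With female mutant 3 left out, the male log2 fold change was 0.30 (SE 0.07), with an unadjusted p of 8.81e-04 and an adjusted p of 0.536 by edgeR. The female log2 fold change was then 0.01 (SE 0.08), and the difference, female minus male, -0.29 (SE 0.10; edgeR adjusted p = 0.459).

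Msmo1, a C4-methylsterol oxidase, was named after its values were seen. It was at 94.2, 93.0 and 99.2 CPM in male mutants, against 84.4, 83.1 and 83.5 CPM in male wild types. In females it was at 88.1, 44.9 and 89.4 CPM in mutants, against 91.6, 103 and 94.4 CPM in wild types. The male mutants all lay above and the female mutants all below the wild types of their sex. Leaving out female mutant 3, its log2 fold change was 0.19 (SE 0.06) in males and -0.12 (SE 0.07) in females, and the difference, female minus male, was -0.31 (SE 0.10; unadjusted p = 0.00656, edgeR adjusted p = 0.459).

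Tm7sf2, a sterol reductase that acts after Cyp51, was at 10.1, 10.5 and 9.84 CPM in male mutants, against 6.09, 8.94 and 9.46 CPM in male wild types. In females it was at 6.96, 6.20 and 6.61 CPM in mutants, against 8.77, 9.39 and 7.16 CPM in wild types. The genotypes did not overlap in either sex, with mutants higher in males and lower in females. The difference of its log2 fold change, female minus male, was -0.65 (SE 0.25; unadjusted p = 0.0240, edgeR adjusted p = 0.555), and -0.63 (SE 0.24) without female mutant 3. Male wild type 8, of high mitochondrial share, was far below the other 2 male wild types, and exons of Tm7sf2 overlap those of Vps51 on the same strand.

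Cyp51, the lanosterol demethylase, was at 81.03, 127 and 87.2 CPM in female mutants, against 76.7, 71.1 and 72.3 CPM in female wild types. In males it was at 80.2, 75.4 and 74.9 CPM in mutants, against 90.6, 64.9 and 64.6 CPM in wild types. Sc5d, the sterol desaturase near the end of the pathway, had the same order, with 97.4, 131 and 97.1 CPM in female mutants against 90.0, 83.4 and 84.0 CPM in female wild types. For both genes every female mutant lay above every female wild type, and the highest library of each sex was female mutant 3 or male wild type 8, which also had the highest mitochondrial share of their sex. Sc5d in males was at 101, 88.8 and 88.6 CPM in mutants, against 103, 80.9 and 82.0 CPM in wild types. In females the log2 fold changes were 0.40 (SE 0.17) for Cyp51 and 0.33 (SE 0.14) for Sc5d (edgeR adjusted p = 0.420 for each), and without female mutant 3 they were 0.20 (SE 0.12) and 0.18 (SE 0.10). Exons of Cyp51 overlap those of Akap9 on the other strand.

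The remaining 6 sterol arm genes gave log2 fold changes of 0.00 to 0.15 in males. They are Fdft1 (squalene synthase), Lss (lanosterol synthase), Nsdhl and Hsd17b7 (which act in C4 demethylation), Ebp (the sterol isomerase) and Dhcr7 (the last reductase of the pathway), and the lowest of them was Nsdhl at 0.00. Exons of Fdft1 overlap those of Ctsb on the other strand, which held 120590 counts over the 12 libraries against 23209 for Fdft1. Reads inside that overlap cannot be told apart without the strand setting. In males, Dhcr7 did not overlap between mutants (27.3, 31.0 and 28.2 CPM) and wild types (25.2, 25.7 and 27.1 CPM). Counted over the 18 synthesis genes, 6 were without overlap and higher in male mutants (Acat2, Mvd, Sqle, Tm7sf2, Msmo1 and Dhcr7) and 0 lower, where 6.88% of all tested genes were higher and 6.62% lower without overlap. In females, 4 were higher without overlap (Hmgcs1, Idi1, Cyp51 and Sc5d) and 4 lower (Fdps, Tm7sf2, Msmo1 and Hsd17b7), beside 10.1% and 12.4% of all tested genes. For Fdps the separation was seen in female mutants 1 and 6 alone, since the count of 0 in female mutant 3 does not place that library. Tm7sf2 and Msmo1 stand on both lists, higher in male mutants and lower in female mutants.

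**Figure D3:**
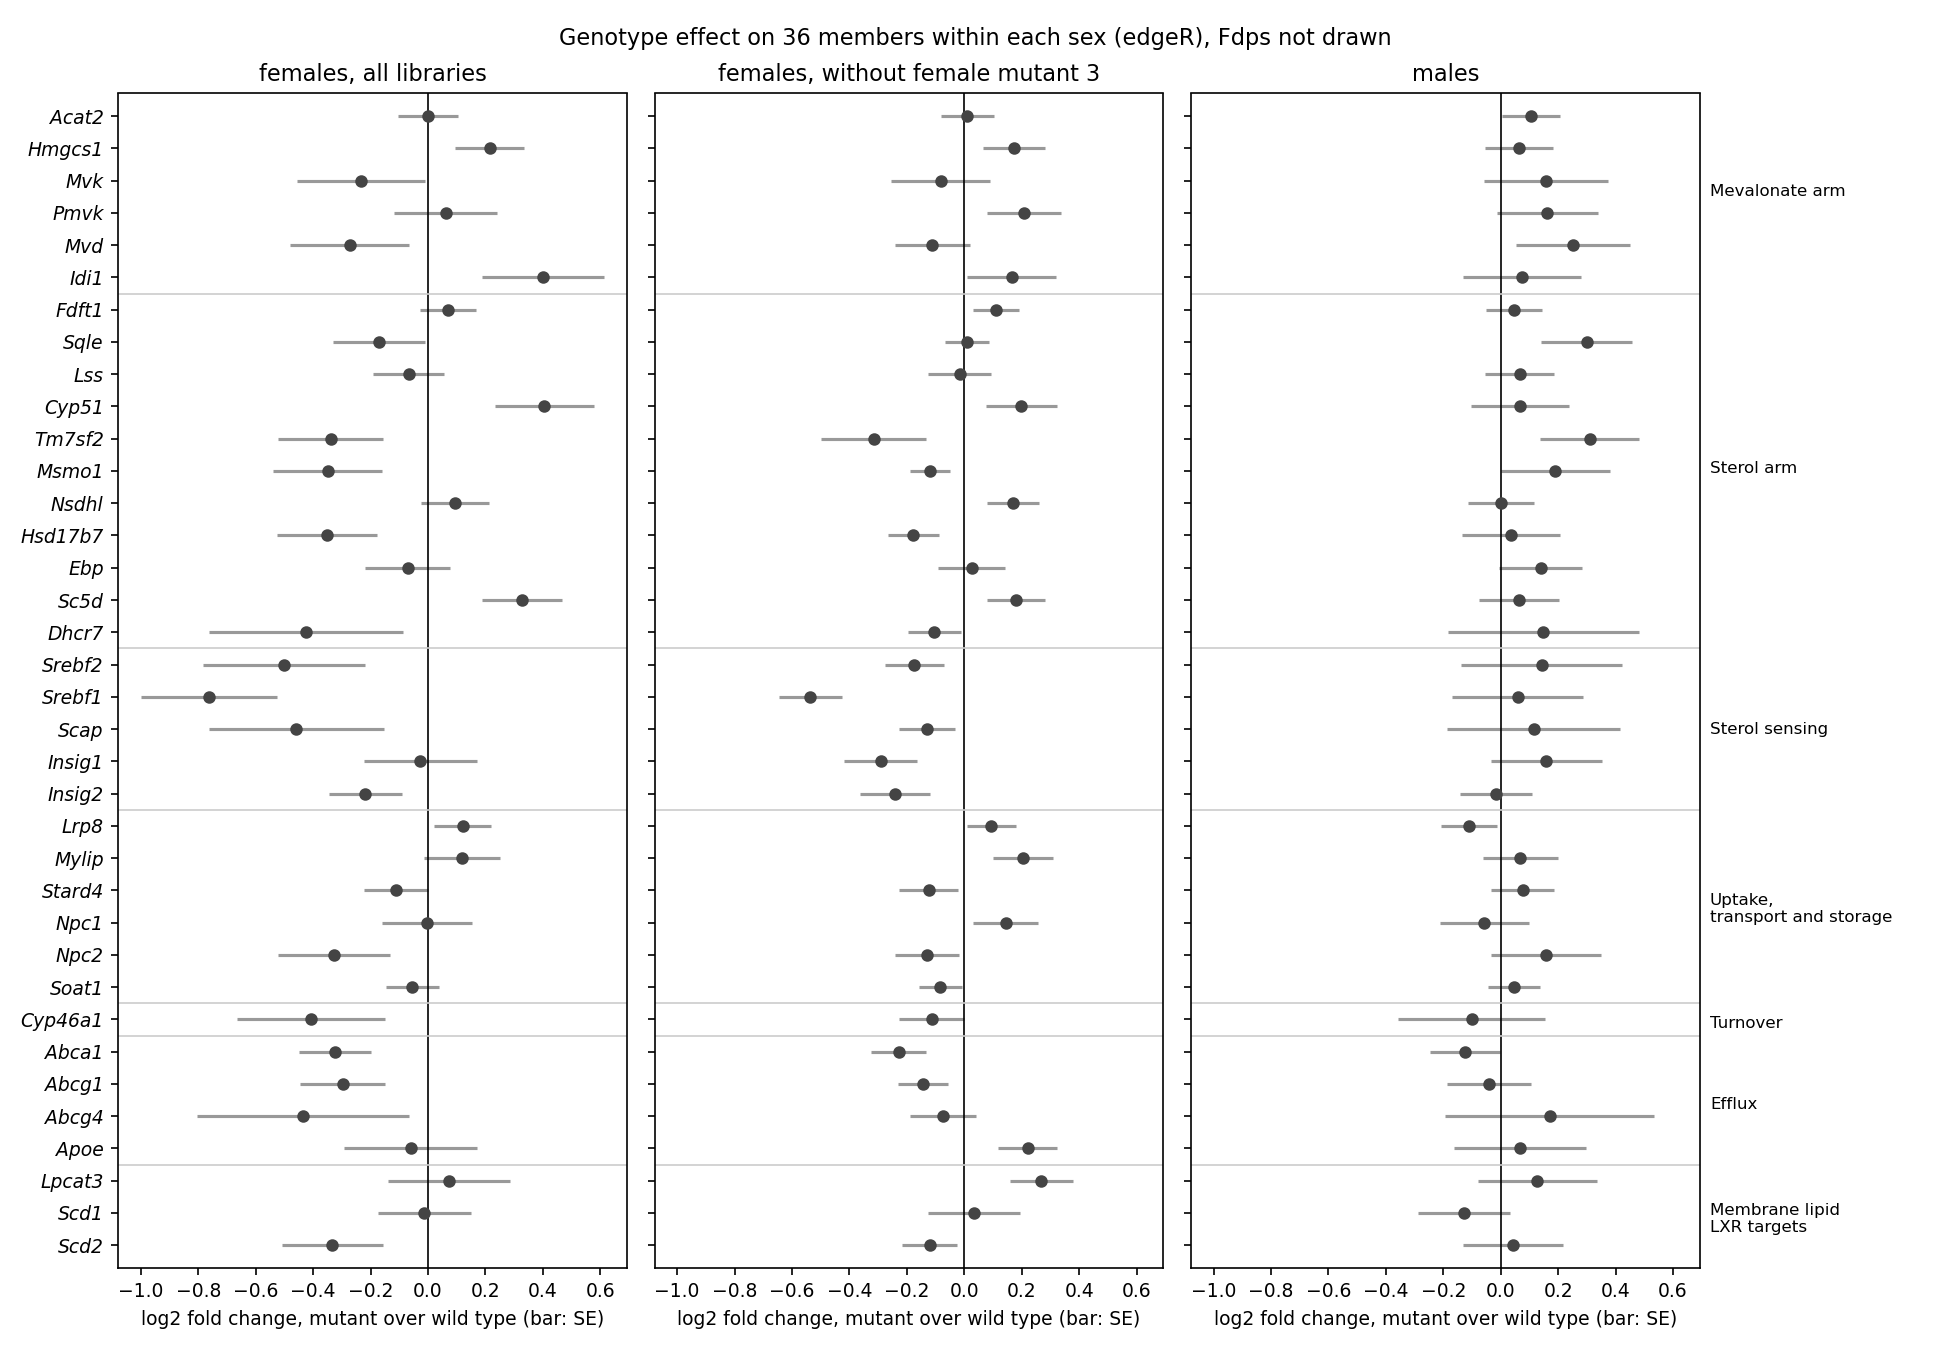
Log2 fold change (mutant over wild type, edgeR) of 36 members by role, with bars of 1 SE, in females (left), in females without female mutant 3 (middle) and in males (right); Fdps is not drawn because its wide error would stretch the axis. In males the synthesis genes lie at or right of 0, and in females the sterol sensing genes lie left of 0 with and without female mutant 3.

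The 5 sterol sensing genes all lay below 0 in females (median -0.46), and 4 of 5 lay above 0 in males (median 0.12). With female mutant 3 left out, all 5 also lay below 0 in females (median -0.24), and 4 of the 5 (Srebf2, Srebf1, Insig1 and Insig2) were lower without overlap, beside 15.6% of all tested genes. Srebf1 (ENSMUSG00000020538), which encodes SREBP1, the regulator of fatty acid synthesis and an LXR target, was at 19.9, 6.97 and 19.1 CPM in female mutants, against 26.3, 31.8 and 26.7 CPM in female wild types. In males Srebf1 was at 26.1, 29.3 and 24.5 CPM in mutants, against 25.5, 26.98 and 24.2 CPM in wild types. The 3 female mutants were the lowest of the 12 libraries, and the male groups overlapped.

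The log2 fold change of Srebf1 in females was -0.76 (SE 0.24; unadjusted p = 0.00732, edgeR adjusted p = 0.418). Without female mutant 3 it was -0.54 (SE 0.11; unadjusted p = 3.75e-04, edgeR adjusted p = 0.516). DESeq2 without female mutant 3 gave -0.53 (SE 0.13; adjusted p = 0.0439), in a comparison of 15588 genes, of which 0.0962% were called. This was the only call of a member by any tool or setting tried, and the adjusted p over the alternatives for females ranged from 0.0439 to 0.752. In males the log2 fold change was 0.06 (SE 0.23), and the difference, female minus male, was -0.82 (SE 0.33; edgeR adjusted p = 0.555), or -0.60 (SE 0.15; edgeR adjusted p = 0.459) without female mutant 3. Exons of Srebf1 overlap those of Rai1 on the other strand. With the strand setting of the counting not given, reads of Srebf1 inside that overlap cannot be told apart from those of Rai1. Markers of microglia were lower beside it in females, in 7 of 8 genes (summed CPM 251 to 275 in mutants against 278 to 308 in wild types), as were 5 of 5 markers of red blood cells (18.2 to 32.2 against 34.1 to 44.2), and 8 of 8 markers of striatal neurons (median log2 fold change -0.71; summed CPM 325 to 655 against 369 to 1171, with overlap). The mitochondrial share was higher in the female mutants (9.96%, 31.6% and 8.97%) than in the female wild types (6.25%, 5.23% and 7.89%), with no overlap with or without female mutant 3. The part of these markers and of RNA quality in the values of Srebf1 and the other sterol sensing genes was not tested.

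Srebf2, which encodes the factor that drives the synthesis genes, was at 159.5, 55.8 and 159 CPM in female mutants, against 164, 196 and 179.8 CPM in female wild types. It was at 169, 165 and 181 CPM in male mutants, against 138, 174 and 154 CPM in male wild types. Female mutants 1 and 6 lay just below the lowest female wild type, female mutant 3 lay far below every other library, and the male groups overlapped. Its log2 fold change in females was -0.50 (SE 0.28), and -0.17 (SE 0.10) without female mutant 3.

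Insig1, an SREBP2 target that retains SCAP, was at 49.0, 79.8 and 44.8 CPM in female mutants, against 56.2, 61.6 and 54.4 CPM in female wild types. In males it was at 56.8, 66.2 and 50.4 CPM in mutants, against 59.9, 49.6 and 46.0 CPM in wild types. Female mutant 3 was the highest of the 12 libraries and female mutants 1 and 6 were below the female wild types, so the female log2 fold change was -0.03 (SE 0.20) with it and -0.29 (SE 0.13; unadjusted p = 0.0409, edgeR adjusted p = 0.529) without it. The male log2 fold change was 0.16 (SE 0.19). Insig2, its relative, was at 42.4, 42.2 and 37.5 CPM in female mutants, against 45.3, 46.8 and 49.6 CPM in female wild types, without overlap. In males Insig2 was at 43.0, 50.04 and 45.4 CPM in mutants, against 38.4, 50.3 and 51.3 CPM in wild types, with overlap. Scap, the escort of both SREBPs, had a log2 fold change of -0.46 (SE 0.31) in females, -0.13 (SE 0.10) in females without female mutant 3 and 0.12 (SE 0.30) in males.

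The 6 genes of uptake, transport and storage were close between genotypes, with 2 of 6 above 0 in females (median -0.03; 3 of 6 and 0.01 without female mutant 3) and 4 of 6 in males (median 0.06). Lrp8, a receptor for APOE and reelin, was at 102, 117 and 119 CPM in female mutants, against 103, 102 and 105 CPM in female wild types, and at 103, 92.8 and 108 CPM in male mutants, against 109, 108 and 112 CPM in male wild types. Both sexes overlapped, and the log2 fold changes were 0.12 (SE 0.10) in females and -0.11 (SE 0.10) in males. Mylip, an LXR-induced ligase that marks lipoprotein receptors for degradation, was at 16.7, 12.4 and 16.4 CPM in female mutants, against 14.7, 14.2 and 14.2 CPM in female wild types. It was at 17.3, 16.7 and 15.03 CPM in male mutants, against 17.4, 14.9 and 14.4 CPM in male wild types. Mylip therefore overlapped in both sexes, and without female mutant 3 it did not overlap in females, with mutants higher (log2 fold change 0.20, SE 0.10), as were 14.2% of all tested genes.

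Npc2, which hands cholesterol to NPC1 in lysosomes, was at 42.4, 19.7 and 34.6 CPM in female mutants, against 42.0, 45.5 and 38.8 CPM in female wild types, and at 43.3, 45.6 and 40.1 CPM in male mutants, against 35.4, 41.0 and 39.2 CPM in male wild types. These groups overlapped in both sexes. Stard4, a cytosolic sterol carrier, Npc1, the lysosomal exporter, and Soat1, which esterifies cholesterol for storage, had log2 fold changes of -0.11 (SE 0.11), -0.00 (SE 0.16) and -0.05 (SE 0.09) in females and 0.08 (SE 0.11), -0.06 (SE 0.16) and 0.04 (SE 0.09) in males. Npc1 in females was at 0.14 (SE 0.11) without female mutant 3, and its exons overlap those of Rmc1 on the other strand (6737 counts against 24879 for Npc1). Soat1 varied least among the members, from 47.9 to 52.8 CPM over the 12 libraries.

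Cyp46a1, the neuronal hydroxylase that turns cholesterol into an oxysterol able to leave the brain, was at 108, 43.0 and 109 CPM in female mutants, against 105, 119 and 130.1 CPM in female wild types. In males it was at 108, 92.5 and 119.9 CPM in mutants, against 112, 124 and 108 CPM in wild types. Apart from female mutant 3, the genotypes overlapped in both sexes. Over both sexes the log2 fold change was -0.26 (SE 0.18; edgeR adjusted p = 0.950), and -0.11 (SE 0.07; edgeR adjusted p = 0.790) without female mutant 3.

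Of the efflux genes, Abca1 (ENSMUSG00000015243), the transporter that loads lipid onto APOE, was at 49.8, 37.2 and 46.8 CPM in female mutants, against 58.8, 51.3 and 59.6 CPM in female wild types. It was at 55.3, 55.2 and 47.1 CPM in male mutants, against 60.7, 55.0 and 56.1 CPM in male wild types. The female groups did not overlap, and in males 1 wild type lay just below 2 mutants. It was the member of smallest p over both sexes, with a log2 fold change of -0.22 (SE 0.09; unadjusted p = 0.0278, edgeR adjusted p = 0.950), and it kept this direction without female mutant 3 (-0.17, SE 0.06; unadjusted p = 0.0211, edgeR adjusted p = 0.570). Over all alternatives for both sexes, its log2 fold change ran from -0.30 to -0.14, with an adjusted p of 0.340 or more.

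Abcg1, a partner transporter that passes cholesterol to lipid-bearing particles, was at 56.4, 34.8 and 52.0 CPM in female mutants, against 55.7, 61.0 and 63.0 CPM in female wild types. In males it was at 63.4, 59.7 and 54.4 CPM in mutants, against 60.5, 63.5 and 58.6 CPM in wild types. Both sexes overlapped. Abcg4, a relative of Abcg1 found in the nervous system, was at 45.0, 7.36 and 42.8 CPM in female mutants, against 46.2, 50.5 and 42.0 CPM in female wild types, and at 47.3, 49.0 and 54.3 CPM in male mutants, against 38.5, 44.9 and 50.4 CPM in male wild types. Its female log2 fold change of -0.44 (SE 0.37) was -0.07 (SE 0.12) without female mutant 3.

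Apoe was at 803, 379.8 and 839.8 CPM in female mutants, against 665, 673 and 777 CPM in female wild types. It was at 752, 728 and 714 CPM in male mutants, against 796, 622 and 674 CPM in male wild types. Female mutants 1 and 6 were the highest of the 12 libraries, female mutant 3 was the lowest, and the male groups overlapped. The log2 fold change of Apoe in females was -0.06 (SE 0.23) with female mutant 3 and 0.22 (SE 0.10; unadjusted p = 0.0518, edgeR adjusted p = 0.529) without it. In female mutants 1 and 6, Apoe thus lay above and Abca1 below all 3 female wild types.

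Among the membrane lipid enzymes, Lpcat3, an LXR-induced enzyme that puts polyunsaturated chains into phospholipids, was at 17.4, 6.58 and 14.0 CPM in female mutants, against 12.6, 14.0 and 12.5 CPM in female wild types. In males it was at 14.4, 15.1 and 14.9 CPM in mutants, against 13.9, 13.8 and 13.01 CPM in wild types. The male groups did not overlap, and without female mutant 3 the 5 remaining mutants lay above the 6 wild types (lowest mutant 13.99 CPM, highest wild type 13.98 CPM), and 0.477% of all tested genes were higher in mutants without overlap. Its log2 fold change over both sexes was 0.10 (SE 0.15), and 0.19 (SE 0.07; unadjusted p = 0.0230, edgeR adjusted p = 0.576) without female mutant 3. Exons of Lpcat3 overlap those of Emg1 on the other strand.

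Scd1 was at 308, 246 and 240.3 CPM in female mutants, against 285, 236 and 282 CPM in female wild types, and at 285, 277 and 217 CPM in male mutants, against 344, 252 and 254 CPM in male wild types. The genotypes overlapped in both sexes. Scd2 was at 1843, 1012 and 1599 CPM in female mutants, against 1860.2, 1909 and 1844 CPM in female wild types, and at 1898, 1959 and 1598 CPM in male mutants, against 1802, 1742 and 1751 CPM in male wild types. In females the mutants lay below the wild types, female mutant 1 by little, and in males they overlapped. The desaturases are close copies of one another, and how reads shared between them were counted is not given in the sources used here.

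Female mutant 3 did not deviate in a single direction. Of the 37 members, 22 (Fdps among them, by its count of 0) lay more than 0.3 on the log2 scale below the median of the other libraries in this library, and 5 lay more than 0.3 above it (Hmgcs1, Idi1, Cyp51, Sc5d and Insig1). In the other 11 libraries, 0 to 4 members lay below by that much and 0 to 3 above. On that scale Idi1 stood at 0.86 and Dhcr7 at -2.70, for which it held 10 counts, while Fdps, with a count of 0, has no level that can be placed. The 5 high members are all SREBP2 targets, but so are Sqle, Msmo1, Mvd and Dhcr7, which were low in the same library. The share of all tested genes beyond this cut was not computed, so the counts describe the library and do not set the members apart from other genes.

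**Figure D4:**
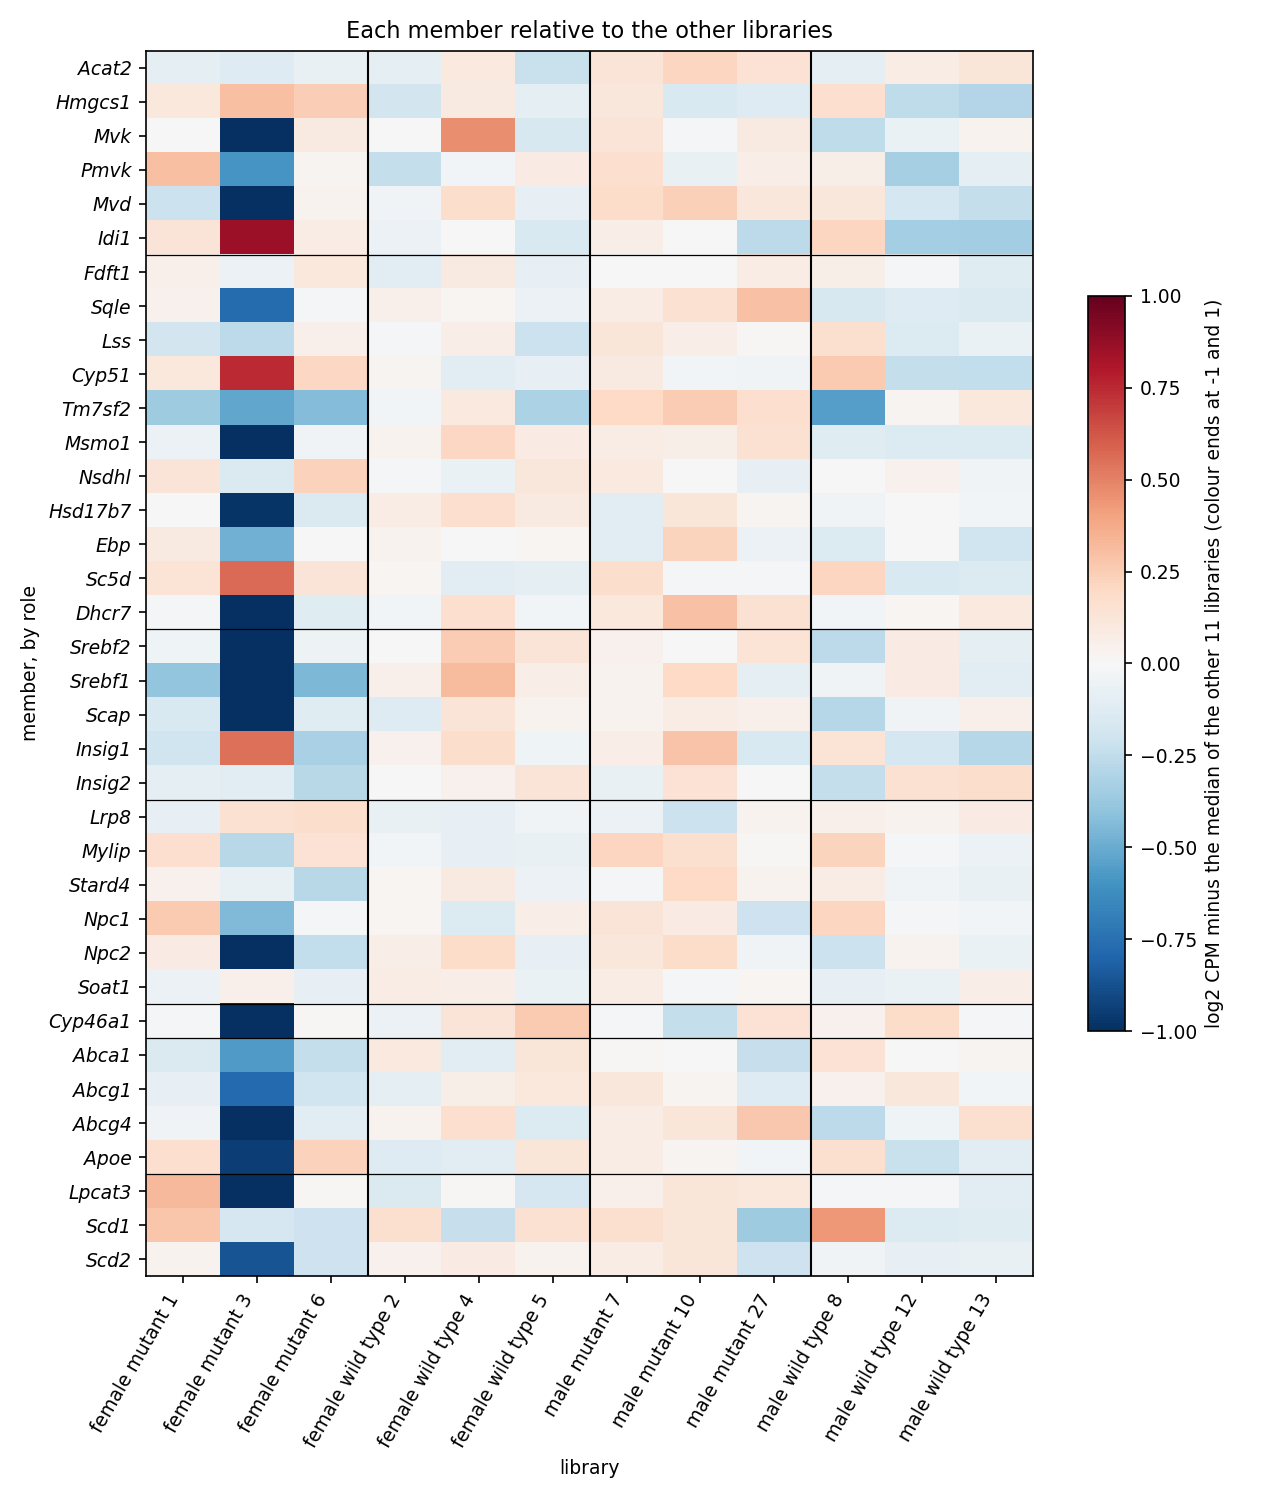
Log2 CPM of 36 members in each library minus the median of the other 11 libraries, by role from top to bottom, with blue for lower and red for higher and the colour ending at -1 and 1; Fdps is not drawn. The column of female mutant 3 holds the strongest colours of both kinds, and in female mutants 1 and 6 the bluest cells are those of Srebf1 and Tm7sf2.

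Between the sexes, 0 of the 37 members passed the edgeR test (0.0389% of all tested genes did), and 0 had an unadjusted p under 0.05 (1.77% of all tested genes did). The smallest p among the members was that of Fdps, higher in males by 0.72 on the log2 scale (SE 0.38), followed by Acat2, higher in males by 0.13 (SE 0.07; edgeR adjusted p = 0.897 for each). Values of Fdps rest on 167 counts over all libraries, with a count of 0 in female mutant 3. Without that library, Fdps was higher in males by 0.66 (SE 0.36). For the difference of the genotype effect, the 3 members at an unadjusted p under 0.05 were Tm7sf2, Srebf1 and Fdps. Without female mutant 3 there were 6, namely Srebf1, Msmo1, Sqle, Insig1, Tm7sf2 and Srebf2, all with a lower effect in females than in males, beside 5.43% of all genes at that p and in that direction. Their adjusted p ranged from 0.459 to 0.460 by edgeR.

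Of the 55 other genes of the pathway that were listed, 53 passed the filter and 0 passed the edgeR test in any of the comparisons. In males 36 of 53 lay above 0 (median 0.05), in females 16 of 53 (median -0.15) and over both sexes 23 of 53 (median -0.02). Without female mutant 3 the counts were 21 of 53 in females (median -0.05) and 31 of 53 over both sexes (median 0.01). Soat2, a second esterifying enzyme, and Ch25h, which makes another oxysterol, did not pass the filter. Over both sexes the smallest p was that of Clu, an apolipoprotein made by astrocytes. Clu was at 555 ± 41.0 CPM in mutants and 499 ± 17.8 CPM in wild types (SD, n = 6 each), with a log2 fold change of 0.15 (SE 0.07). Lrp1, a receptor for APOE, Fads1, a fatty acid desaturase, and Apoc1, an apolipoprotein, followed, with log2 fold changes of -0.28 (SE 0.17), -0.25 (SE 0.15) and 0.63 (SE 0.42). With female mutant 3 left out, these were 0.12 (SE 0.05) for Clu, -0.13 (SE 0.06) for Lrp1, -0.11 (SE 0.06) for Fads1 and 0.41 (SE 0.36) for Apoc1.

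Among the other pathway genes of small p in males, Lbr, a sterol reductase of the nuclear envelope that catalyses the same step as Tm7sf2, was at 13.1, 15.7 and 12.8 CPM in male mutants, against 11.5, 11.3 and 10.3 CPM in male wild types. The groups did not overlap for Lbr, and its log2 fold change was 0.33 (SE 0.13). Arl4c, an LXR-induced small GTPase, had a log2 fold change of 0.28 (SE 0.13), and Tmem97, a sterol-regulated membrane protein, of 0.32 (SE 0.16). The adjusted p was 1 by edgeR for each of these 3 genes.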

How the data were processed

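Cortex RNA of 12 mice was sequenced as paired reads of mRNA libraries, per the labels' protocols. The values the authors deposited are raw counts of reads per gene. Trimmomatic 0.36, HISAT2 2.1.0, HTSeq 0.11, Cufflinks and the build GRCm38.p6 are named in the submitters' processing notes, and neither the strand setting nor the annotation release is given there. Of 54232 identifiers, 54165 matched GENCODE M21, and the other 67 took no more than 0.0297% of the counts of any library.

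Genes were kept by filterByExpr over the 4 groups, scaled by TMM and tested with edgeR 4.0.16 (quasi-likelihood, R 4.3.3). The model over both sexes had terms for sex and genotype, and the comparisons within a sex used a model with 1 mean for each group. Benjamini-Hochberg adjustment ran over the 18016 genes tested. The SE is the log2 fold change over the root of F. CPM use TMM-scaled totals, list means use log2 CPM with a prior count of 2, and TPM use merged exon lengths. Values of every library are given for the 2 members of smallest p per role over both sexes, in males and for the difference, and for Hmgcs1, Sqle, Srebf2, Insig1, Cyp46a1, Abca1 and Apoe; other members named in full were added after their values were seen. The fits were tested on simulated data. Alternatives were DESeq2 1.42.0, limma-voom with library weights (limma 3.58.1), RLE or library totals, other filters, no sex term, the mitochondrial share as a covariate, each sex alone and leaving out each library. Leaving Fdps out of the synthesis list was added after the data were seen. Members and lists were chosen with earlier results of these data known. The labels name 1 mouse per library and no batch. Not every gene of the pathway lists is reported here.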

Additional observations from a re-analysis of the deposited data

Results flagged for a closer look

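Groups of 6 libraries were the mutants or the wild types of both sexes, for each of 37 members. In 20 of these 74 groups, 1 library lay apart from the other 5 by Dixon's criterion. Chance marks about 1 in 20 independent groups, but these groups share the same libraries. The share of all tested genes marked by this rule was not computed, so the count does not set the members apart from other genes. In 19 of the 20 marked groups the library was female mutant 3. It was the lowest mutant for Mvk (3.87 CPM), Mvd (3.87 CPM), Dhcr7 (3.87 CPM), Sqle (34.5 CPM), Msmo1 (44.9 CPM) and Hsd17b7 (12.8 CPM) among the synthesis genes. It was also the lowest for Srebf2 (55.8 CPM), Srebf1 (6.97 CPM), Scap (15.9 CPM), Npc2 (19.7 CPM) and Cyp46a1 (43.0 CPM), and for Abcg1 (34.8 CPM), Abcg4 (7.36 CPM), Apoe (379.8 CPM), Lpcat3 (6.58 CPM) and Scd2 (1012 CPM). It was the highest mutant for Idi1 (38.7 CPM), Cyp51 (127 CPM) and Sc5d (131 CPM). The remaining group was Mylip in wild types, where male wild type 8 lay highest at 17.4 CPM.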

How the results depend on the processing

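The number of mice limits the precision, as does the depth of female mutant 3 (3748515 counts, 10 of them for Mvk), whose spread enters the SE of both sexes. Of the values checked setting by setting (the 2 members of smallest p per role in each comparison), 1067 kept their direction and their side of the threshold, 21 turned and 1 passed it. No paired analysis was possible because no animal number occurs in more than 1 group. Leaving out 1 library left 2 in its group, and all groups shared 1 estimate of the spread. Genes called over both sexes numbered 1. They numbered 29 by DESeq2, 22 by weighted limma-voom, 0 with library totals, 2 with the mitochondrial covariate, 53 by DESeq2 and 4 by weighted limma-voom without female mutant 3, and 0 to 2 with each library left out. In females the 0 calls became 6 by DESeq2, 4 by weighted limma-voom, 2 with no filter, and 15 by DESeq2 (1 of them a member, Srebf1) and 1 by weighted limma-voom without female mutant 3. In males the 0 calls became 4 by DESeq2, 1 by weighted limma-voom, 16 and 1 by these tools without female mutant 3, and 0 to 1 with each library left out. For the difference between the sexes the 0 calls became 4 by DESeq2 with or without female mutant 3, 1 by weighted limma-voom, 1 with no filter, and 0 to 1 with each library left out.

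Over both sexes the synthesis median was -0.0302 with library totals. The efflux median was -0.0237 by weighted limma-voom, -0.21 with library totals, 0.0137 with the covariate, and -0.0107 by DESeq2 and -0.0167 by weighted limma-voom without female mutant 3, and ran from -0.21 to -0.0120 with each library left out. Synthesis minus efflux was 0.0939 by weighted limma-voom, 0.0753 with the covariate, and 0.0890 by DESeq2 and 0.0865 by weighted limma-voom without female mutant 3 (0.0882 to 0.24 with each library left out). In females the synthesis median was -0.00121 by weighted limma-voom, -0.25 with library totals, and 0.0173 by DESeq2 and 0.00436 by weighted limma-voom without female mutant 3 (-0.15 to 0.0104 with each library left out). The efflux median there was -0.14, -0.49, -0.10 and -0.11 under the same 4 settings (-0.42 to -0.11), and synthesis minus efflux was 0.14, 0.12 and 0.11 under these other than library totals (0.12 to 0.31). In males the efflux median was 0.0514 with library totals (-0.0219 to 0.0523 with each library left out), and 14 synthesis genes lay above 0 without male wild type 13. Synthesis genes with the direct repeat numbered 0 at 1 mismatch and 4 at 3 mismatches, and efflux genes 1 at 3 mismatches.

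Over all 37 members and all settings, 25 log2 fold changes took the other sign under 1 or more settings over both sexes, 14 in females, 12 in males and 14 for the difference, such as Apoe in females (-0.25 to 0.24). Among the values checked setting by setting, those of 6 members turned. Lpcat3 ran from -0.00610 (without female mutant 1) to 0.19 over both sexes and from -0.18 to 0.27 in females with each library left out, and was -0.0926 in females with library totals. Lrp8 with library totals was -0.10 in females and -0.0205 for the difference. Npc2 over both sexes was 0.0343 by weighted limma-voom, 0.0576 with the covariate, and without female mutant 3 it was 0.0308 by edgeR, 0.0319 by DESeq2 and 0.0394 by weighted limma-voom. Scd1 for the difference was -0.0329 by weighted limma-voom, -0.13 with library totals, -0.00468 by weighted limma-voom without female mutant 3, and -0.0522 to 0.19 with each library left out. Scd1 in males was 0.0213 by weighted limma-voom, 0.0265 by the same tool without female mutant 3, and -0.20 to 0.0358 with each library left out. Weighted limma-voom without female mutant 3 gave 0.00656 for Scd2 over both sexes and 0.00774 for the Cyp46a1 difference. The cause of these changes was not tested.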

Other observations

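The 9 listed enzymes of fatty acid synthesis and desaturation, targets of SREBP1, were split in females, with 4 of 9 above 0 (median log2 fold change -0.24) and 0 called by edgeR; without female mutant 3 the count was again 4 of 9 (median -0.07). Fads1, a fatty acid desaturase, was at 174, 86.3 and 167 CPM in female mutants, against 207, 204 and 193 CPM in female wild types, and at 188, 192 and 175 CPM in male mutants, against 179, 186 and 196 CPM in male wild types. Fasn, the fatty acid synthase, was at 226, 89.4 and 221 CPM in female mutants, against 240.1, 284 and 255 CPM in female wild types. For both genes all 3 female mutants lay below all 3 female wild types, which was noticed after the values were seen. Of the 9 enzymes, 3 were lower in female mutants without overlap and 0 higher, beside 12.4% and 10.1% of all tested genes. Without female mutant 3 the log2 fold changes in females were -0.24 (SE 0.07) for Fads1 and -0.21 (SE 0.09) for Fasn, with adjusted p of 0.516 and 0.529 by edgeR. Fasn in males was at 278, 249.1 and 258 CPM in mutants, against 218, 257 and 236 CPM in wild types, with overlap. In males 7 of the 9 enzymes lay above 0 (median 0.05).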
